A study of Mus musculus with 20 samples.

Results

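Dbp, Tef, Hlf and Nfil3 encode the transcription factors that act at the D-box, a short DNA element of many rhythmic genes. The 4 genes were taken from the deposited count table by symbol, with 1 row each among 21844 genes (ENSMUSG00000059824, ENSMUSG00000022389, ENSMUSG00000003949 and ENSMUSG00000056749), and all 4 passed the filter on low counts. The table comes from 20 libraries of mouse hindlimb muscle in 4 groups of 5. All mice carried the label Cre+:iMSBmal1 fl/fl, so the vehicle groups also had a Cre recombinase and floxed alleles of the clock gene Bmal1. Treatments were Vehicle + No Exercise (vehicle sedentary), iMSBmal1KO + No Exercise (knockout sedentary), Vehicle + Exercise Training (vehicle trained) and iMSBMal1KO + Exercise Training (knockout trained). Training was 6 weeks of daily treadmill running. Muscle was taken 48 hours after training by the labels and 47 hours by the series text. One label field names the gastrocnemius and another the tibialis anterior. The labels name no promoter for the Cre, no inducing agent, no age and no clock time, and nothing in them says whether libraries of a group came from separate animals, so p-values measure the spread between these samples.

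In the core clock, BMAL1 and its partner CLOCK (or NPAS2) activate genes through E-boxes, among them the Per and Cry repressors and the REV-ERB receptors. DBP, TEF and HLF form the PAR bZIP family and activate transcription from D-boxes. NFIL3, also called E4BP4, binds the same element and represses it. Dbp is a textbook E-box target of BMAL1 and CLOCK. Nfil3 is controlled through the ROR response element (RRE), where REV-ERB receptors repress and ROR receptors activate. In the liver and kidney the PAR bZIP factors drive genes of vitamin B6, heme and drug metabolism.

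The stretches upstream of the start sites are shown for Tef and Nfil3 because they hold a match to the elements just named. They are the 250 bases before each RefSeq start site (GRCm38.p6), 5' to 3' on the gene's strand. Capitals mark CACGTG (the E-box) in the Tef windows and TGACCT, the reverse complement of the RRE core AGGTCA, in the Nfil3 window.
Tef, first start site, chr15:81802423-81802672, strand plus: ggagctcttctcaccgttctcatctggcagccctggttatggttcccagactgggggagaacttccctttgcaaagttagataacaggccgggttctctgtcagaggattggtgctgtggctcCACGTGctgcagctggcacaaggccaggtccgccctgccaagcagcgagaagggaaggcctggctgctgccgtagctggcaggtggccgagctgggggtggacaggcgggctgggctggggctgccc
Tef, second start site, chr15:81811164-81811413, strand plus: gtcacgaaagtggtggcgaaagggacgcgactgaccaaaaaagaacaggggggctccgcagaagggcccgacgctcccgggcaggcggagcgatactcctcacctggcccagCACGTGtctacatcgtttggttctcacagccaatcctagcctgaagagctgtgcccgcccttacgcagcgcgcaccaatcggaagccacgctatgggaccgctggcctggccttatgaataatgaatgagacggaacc
Nfil3, chr13:52981040-52981289, strand minus: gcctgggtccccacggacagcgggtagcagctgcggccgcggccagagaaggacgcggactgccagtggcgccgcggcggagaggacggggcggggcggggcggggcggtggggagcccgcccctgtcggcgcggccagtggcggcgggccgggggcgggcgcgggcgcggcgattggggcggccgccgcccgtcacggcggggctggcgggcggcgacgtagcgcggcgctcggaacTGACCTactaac
Counted from the start site, the E-box lay at -127 to -122 in the first Tef window and at -138 to -133 in the second, and the RRE core at -12 to -7 in the Nfil3 window. CACGTG stood in 6.02% of the 32851 upstream windows of that length in the table, and AGGTCA on either strand in 14% of them. CACGTT, the E'-box, stood in 3.85% of windows and in none of the members' windows. The D-box, searched as TTATGTAA or TTACGTAA on both strands, stood in 0.931% of windows and in no member's. The Dbp and Hlf windows held none of these letters, which says nothing of elements elsewhere in the genes. A match is a description of letters, not a site of binding.

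Several facts of the whole series bear on what follows. Totals of estimated counts lay between 10610333 and 19153527 per library. Squared differences between 2 libraries were measured relative to sampling noise. For knockout-trained libraries 1 and 4 they were 1.90 at low and 2.38 at high counts, and for libraries 3 and 5 2.01 and 1.755. Because they grew little or not at all with the count, each pair was counted as 1 sample, which leaves 18 samples and n = 3 in that group. That group was itself split. At high counts its library 1 differed by 7.15 to 18.8 from the knockout sedentary libraries. From libraries 2, 3 and 5 of its own group it differed by 65.9, 41.6 and 43.5. Vehicle-trained library 2 stood far from its group, and results are given with and without it. It was singled out from these same data, and Dbp, Hlf and Nfil3 are among the genes that set it apart. Leaving out each sample in turn was planned. The limma, DESeq2 and separate-library fits without library 2 were added after the data were seen. All 11 muscle fibre markers passed the filter, with summed levels of 75680 to 123000 CPM (read counts relative to library size, scaled by the TMM method), whereas 1 of 6 listed lymphocyte markers did, with sums of 0.497 to 3.92 CPM. In whole muscle, fewer cells of a type and less RNA per cell cannot be told apart. Arntl, the symbol of Bmal1 in the table, did not fall under the knockout label. In sedentary muscle its mean was 6.67 ± 0.695 CPM with vehicle and 12.5 ± 2.97 CPM with the knockout label (SD, n = 5 each). In trained muscle it was at 142 CPM in vehicle library 2, at 5.97 to 6.92 CPM in the other 4 vehicle libraries and at 8.94 to 15.7 CPM in the knockout trained samples. These counts sum over all exons, and the floxed part was not analysed separately here. Directions below follow the labels, and "knockout" means labelled so.

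In sedentary muscle the 3 activators were lower and the repressor was higher in the samples labelled knockout. Dbp, the activator with the steepest daily rhythm in many tissues, stood at 121, 129.7, 150.2, 113 and 149 CPM in vehicle sedentary libraries 1 to 5. In knockout sedentary libraries 1 to 5 it stood at 44.5, 40.3, 40.9, 37.6 and 31.3 CPM. Every labelled-knockout value was below every vehicle value. The group means were 133 ± 16.6 and 38.9 ± 4.92 CPM (SD, n = 5 each).

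Tef, the most abundant of the activators in CPM, stood at 395, 341, 363, 336 and 417 CPM in vehicle sedentary libraries 1 to 5. The knockout sedentary libraries gave 184, 176, 177, 188 and 188 CPM, so the groups did not overlap. The spread within the labelled-knockout group was small, at 3.15% of its mean, against 9.43% in the vehicle group. Hlf, the third PAR bZIP activator, stood at 31.9, 38.0, 45.7, 42.8 and 37.8 CPM in vehicle sedentary libraries 1 to 5 and at 25.7, 30.8, 31.0, 23.8 and 20.9 CPM in the knockout sedentary ones. The groups came close to each other but did not overlap, since the lowest vehicle value was 31.9 and the highest labelled-knockout value 31.0 CPM.

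Nfil3, the repressor at the same element, went the other way. It stood at 39.1, 35.2, 25.8, 24.4 and 34.1 CPM in vehicle sedentary libraries 1 to 5 and at 77.1, 73.4, 67.6, 68.0 and 76.5 CPM in the knockout sedentary ones. All 5 labelled-knockout values were above all vehicle values. For each of the 4 genes the exact permutation test of log2(CPM + 1), two-sided, gave p = 0.00794, the smallest that 5 against 5 allows. It was run 24 times on the members, 16 times with all samples and 8 times without vehicle-trained library 2, and these p-values were not adjusted. Groups did not overlap for 4 of the 4 members, and for 8.68% of the 14359 genes tested.

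**Figure D1:**
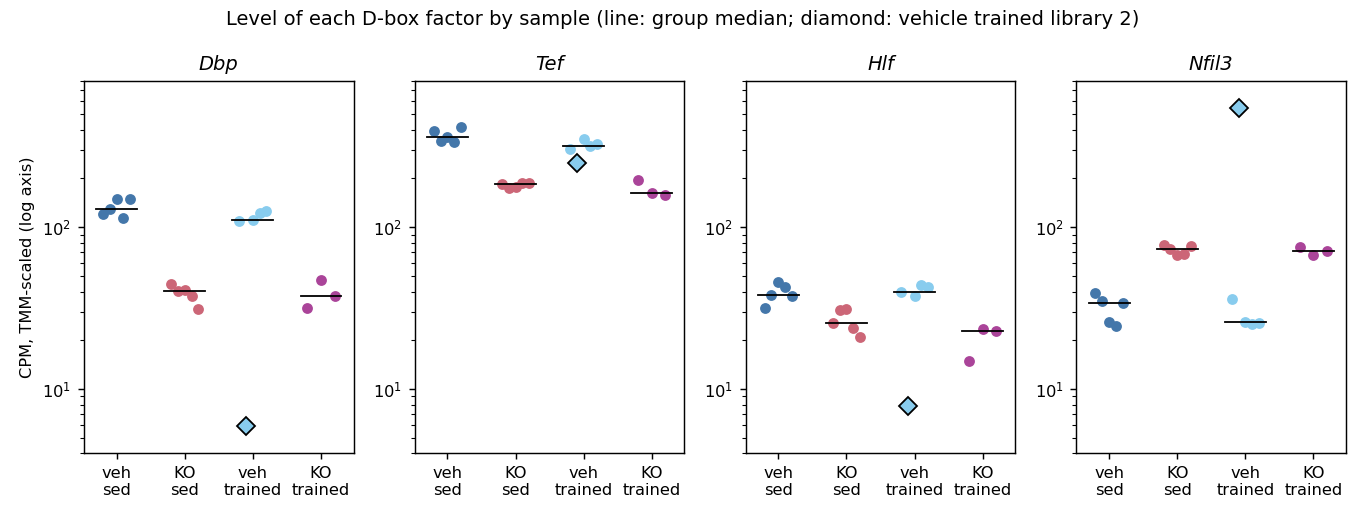
Level of each D-box factor in CPM on a log axis, 1 point per sample, in the 4 groups (veh, vehicle; KO, labelled knockout; sed, sedentary), with the group median as a line and vehicle-trained library 2 as a diamond. Dbp, Tef and Hlf sit lower and Nfil3 sits higher in both labelled-knockout groups than in the vehicle groups, apart from library 2 with 5.89 CPM of Dbp and 542 CPM of Nfil3.

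In the fit across all genes (quasi-likelihood test of edgeR, p adjusted after Benjamini and Hochberg, threshold 0.05), Dbp and Tef passed in sedentary muscle with all 18 samples, that is 2 of 4 members, where 2.33% of all genes passed and 1.31% passed as lower. Dbp fell by 1.77 on the log2 scale (SE 0.447, edgeR adjusted p = 0.0415), lower in 5 of 5 samples. This call of Dbp was lost in 19 of 30 alternatives, among them limma with adjusted p = 0.146 and 0.174, while the change stayed between -1.82 and -1.71. Tef fell by 1.02 (SE 0.104, edgeR adjusted p = 1.03e-05). The log2 change of Hlf was -0.58 (SE 0.297, edgeR adjusted p = 0.581) and that of Nfil3 was 1.19 (SE 0.692, edgeR adjusted p = 0.687), and neither passed.

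When vehicle-trained library 2 was left out of the fit, although it belongs to no sedentary group, all 4 members passed, 3 as lower and 1 as higher, where 6.98% of all genes did, 3.84% as lower and 3.14% as higher. The changes hardly moved, while their standard errors shrank. Dbp fell by 1.77 (SE 0.116, edgeR adjusted p = 1.85e-08), a 3.41-fold difference, and ranked 82nd of 14359 genes by size of change and 6th by p. Tef fell by 1.02 (SE 0.0833, edgeR adjusted p = 1.43e-07), which is 2.03-fold. Hlf fell by 0.57 (SE 0.132, edgeR adjusted p = 0.00952), which is 1.49-fold. Nfil3 rose by 1.20 (SE 0.125, edgeR adjusted p = 3.11e-06), which is 2.29-fold. All samples share 1 dispersion (squared variation between samples beyond counting noise) per gene in this fit. For Nfil3 it was 0.508 with library 2 and 0.0191 without, and for Dbp 0.226 and 0.0171. Tef had the smallest shift, from 0.0193 to 0.0108. With only the 2 sedentary groups in the fit, all 4 members passed as well.

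In trained muscle the same comparison depended on vehicle-trained library 2. Dbp stood at 109.8, 5.89, 111.5, 122 and 126 CPM in vehicle-trained libraries 1 to 5. The 3 knockout trained samples gave 31.9 CPM (libraries 1 and 4), 46.9 CPM (library 2) and 37.4 CPM (libraries 3 and 5). Vehicle library 2 lay below all of them, and the other 4 vehicle libraries lay above all of them. Hlf showed the same arrangement. It stood at 39.9, 7.81, 37.6, 43.8 and 42.6 CPM in vehicle-trained libraries 1 to 5 and at 14.9, 23.4 and 22.9 CPM in the knockout trained samples.

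Tef was the only member whose trained groups did not overlap with all samples in. It stood at 304, 250.5, 352, 318 and 327 CPM in vehicle-trained libraries 1 to 5 and at 196, 162 and 159 CPM in the knockout trained samples. The exact permutation test, two-sided by doubling the smaller tail, gave p = 0.0357, the lowest it can give for 5 against 3. Over all genes, 8.96% did not overlap. Nfil3 stood at 35.9, 542, 25.8, 25.1 and 25.7 CPM in vehicle-trained libraries 1 to 5 and at 75.0, 67.7 and 70.9 CPM in the knockout trained samples. Library 2 lay above all 17 other samples of the study, and the other 4 vehicle libraries lay below all labelled-knockout samples.

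With all 18 samples, Tef alone of the 4 members passed in trained muscle, where 3.29% of all genes did, 1.3% as lower and 1.99% as higher. Tef fell by 0.86 on the log2 scale (SE 0.123, edgeR adjusted p = 0.00062). The log2 change was -1.31 for Dbp (SE 0.527, edgeR adjusted p = 0.207) and -0.76 for Hlf (SE 0.352, edgeR adjusted p = 0.273). For Nfil3 it was -0.90 (SE 0.808, edgeR adjusted p = 0.602), opposite in sign to the difference without library 2. With all samples in, limma gave Nfil3 a change of 0.47 or 0.49 by pseudocount, so its sign also depended on the method.

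Without library 2, all 4 members passed in trained muscle, 3 as lower and 1 as higher, where 8.66% of all genes did, 3.65% as lower and 5.01% as higher. Dbp fell by 1.61 (SE 0.143, edgeR adjusted p = 1.25e-06), which is 3.04-fold. Tef fell by 0.92 (SE 0.102, edgeR adjusted p = 1.05e-05) and Hlf by 1.02 (SE 0.164, edgeR adjusted p = 0.00059). Nfil3 rose by 1.34 (SE 0.148, edgeR adjusted p = 1.05e-05), which is 2.53-fold. For each member the groups of 4 and 3 samples did not overlap, as for 15.9% of all genes. The exact permutation test, two-sided by doubling the smaller tail, cannot go below p = 0.0571 at this size.

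**Figure D2:**
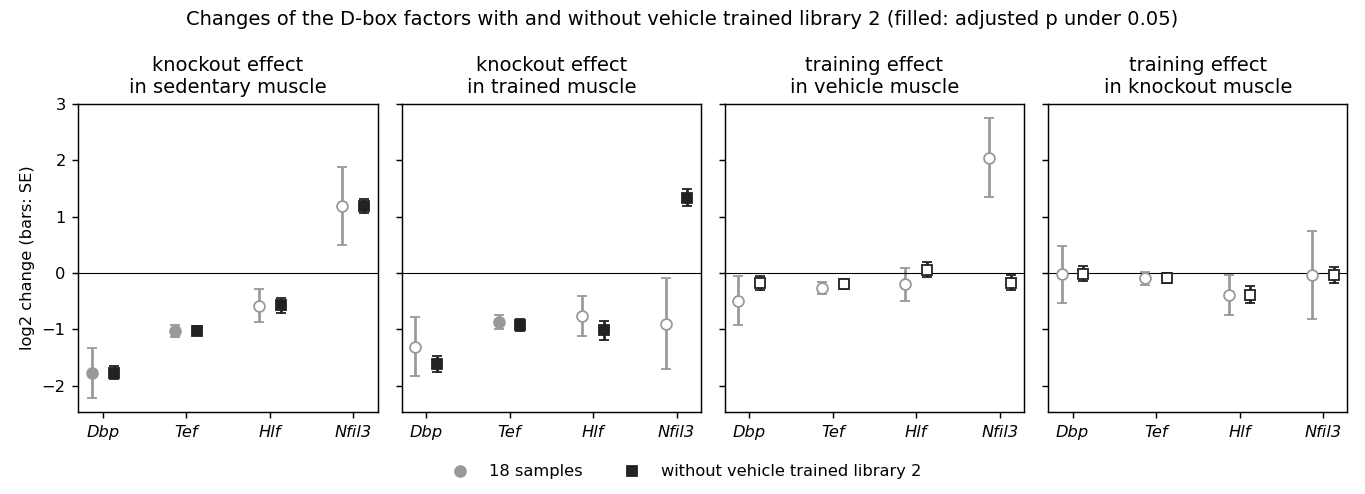
Log2 change of each D-box factor with its SE in the 4 pairwise contrasts, from all 18 samples (grey circles) and without vehicle-trained library 2 (black squares), filled where the edgeR adjusted p was under 0.05. The sedentary changes are alike in both fits, and the trained change of Nfil3 goes from -0.90 to 1.34 when library 2 is left out.

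Training itself moved none of the 4 factors past the threshold, in vehicle muscle or in muscle labelled knockout. In vehicle muscle no gene passed (edgeR, 0 of 14359, 0% with and without library 2), and 2186 genes had an unadjusted p under 0.05 with all samples and 1869 without library 2. DESeq2 called 15 genes for this contrast with all samples and 22 without library 2, no D-box factor among them, though DESeq2 gave Nfil3 no adjusted p with all samples. Without library 2 the log2 changes were -0.18 for Dbp (SE 0.119), -0.19 for Tef (SE 0.0875), 0.06 for Hlf (SE 0.138) and -0.17 for Nfil3 (SE 0.133). The edgeR adjusted p-values of these 4 lay between 0.38 and 0.866. Tef had means of 370.4 ± 34.9 CPM in sedentary (SD, n = 5) and 325 ± 20.2 CPM in trained vehicle samples without library 2 (SD, n = 4), and these groups overlapped (exact permutation test, two-sided, p = 0.0317 with library 2 and 0.0635 without, not adjusted). Over all genes, 1.87% did not overlap with library 2 in and 3.36% without it. With library 2 in, Nfil3 had a log2 change of 2.05 (SE 0.707, edgeR adjusted p = 0.272), which rests on that library.

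In muscle labelled knockout, trained and sedentary samples of Dbp, Tef and Nfil3 were close. Without library 2 the log2 changes were -0.01 for Dbp (SE 0.133), -0.09 for Tef (SE 0.0956) and -0.03 for Nfil3 (SE 0.140). Hlf had the largest of the 4 changes, -0.38 (SE 0.156, edgeR adjusted p = 0.209), with means of 26.4 ± 4.44 CPM in sedentary (SD, n = 5) and 20.4 ± 4.75 CPM in trained samples (SD, n = 3). These groups overlapped, since the highest trained value, 23.4 CPM, was above the lowest sedentary value, 20.9 CPM. The trained group is the split one described above. Its libraries 1 and 4 gave 14.9 CPM of Hlf, and its other samples 23.4 and 22.9 CPM. With all 18 samples 0% of genes passed for this contrast (edgeR, 0 of 14359, 1394 at an unadjusted p under 0.05, 198 called by DESeq2), and 0.843% passed without library 2, 0.696% as higher and 0.146% as lower. Groups did not overlap for 8.64% of all genes and for none of the members.

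The interaction term tests whether the effect of the label knockout differed between sedentary and trained muscle. No gene passed with edgeR (0 of 14359, 0%), with 1076 genes at an unadjusted p under 0.05 with all samples and 1643 without library 2, and DESeq2 called 26 and 116. No member was among them, but DESeq2 gave no adjusted p for Hlf in either fit, nor for Nfil3 with all samples. Without library 2 the difference of the log2 changes was 0.16 for Dbp (SE 0.178), 0.10 for Tef (SE 0.129) and 0.14 for Nfil3 (SE 0.193). For Hlf it was -0.44 (SE 0.208, edgeR adjusted p = 0.429), the trained change being the larger fall. Values that miss the threshold do not show that the effects were equal.

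Levels can be compared between the genes only per length. Per kilobase of exon (union of the exons of a gene in GENCODE M21), vehicle sedentary muscle held 47.1 ± 4.44 CPM of Tef, 44.3 ± 5.54 of Dbp, 15.6 ± 3.14 of Nfil3 and 5.87 ± 0.792 of Hlf (SD, n = 5). Tef and Dbp did not differ beyond their spread, and Dbp was the higher of the pair in 1 of 5 samples, whereas per kilobase of longest transcript Tef was the higher in 5 of 5. In knockout sedentary muscle the order was Nfil3 with 35.8 ± 2.24 CPM per kilobase, Tef with 23.2 ± 0.731, Dbp with 12.99 ± 1.645 and Hlf with 3.96 ± 0.6645 (SD, n = 5). That order held in all 5 knockout sedentary and all 3 knockout trained samples. Nfil3 was above Dbp in each of these 8 samples and below Dbp in all 5 vehicle sedentary and 4 of 5 vehicle trained ones, with the union of exons and with the longest transcript as length. The order of Nfil3 and Tef in labelled-knockout muscle depends on the length, because the exons of Tef sum to 7867 bases and its longest transcript has 4403. With the latter Tef was first in all 8 samples.

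**Figure D3:**
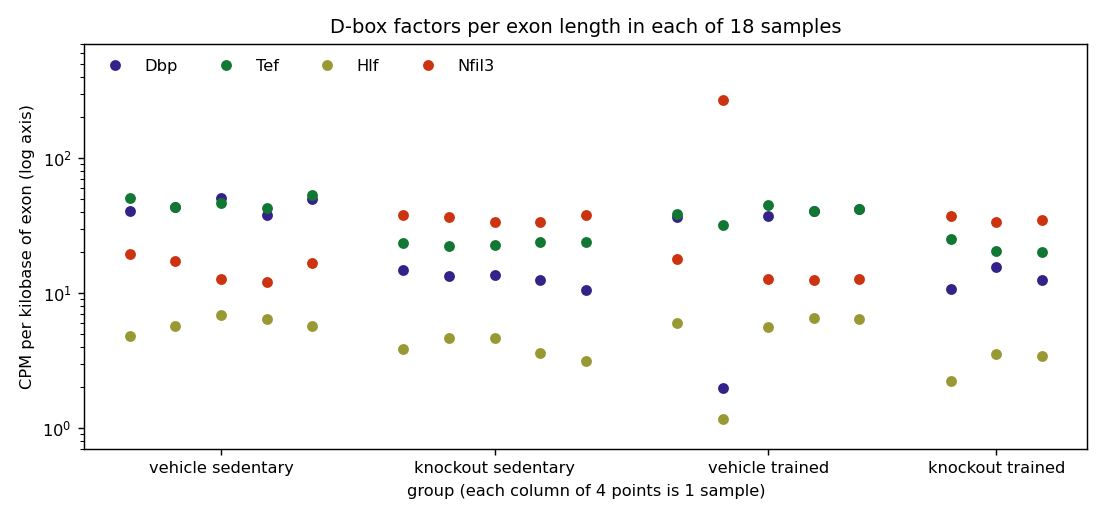
CPM per kilobase of exon of the D-box factors on a log axis, where each column of 4 points is 1 of the 18 samples and the columns are set by group. Nfil3 lies below Tef and Dbp in all vehicle samples but 1, and above both in every labelled-knockout sample.

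The ratio of the summed activators (Dbp, Tef and Hlf CPM) to Nfil3 CPM puts both movements in 1 value per sample. It is given as a description without a test. It was 14, 14.5, 21.7, 20.2 and 17.7 in vehicle sedentary libraries 1 to 5 and 3.30, 3.36, 3.69, 3.66 and 3.14 in the knockout sedentary ones. In vehicle-trained libraries 1 to 5 it was 12.7 in library 1, 0.487 in library 2 and at most 19.4 in the others, and in the knockout trained samples 3.24, 3.43 and 3.09. Apart from vehicle-trained library 2, no vehicle sample was below 12.7 and no labelled-knockout sample above 3.69. On the log2 scale the group SD was 0.1004 in knockout sedentary and 0.0758 in knockout trained samples, against 0.282 in vehicle sedentary ones. Tef gave 64.9% to 72.1% of the summed activator CPM in vehicle sedentary samples and 71.2% to 78.3% in knockout sedentary ones, since Dbp was lowered more than Tef. The sum was not scaled by length, so longer genes weigh more in it. The exons of Tef sum to 7867 bases and those of Dbp to 2993, so these percentages are not shares of transcripts.

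Vehicle-trained library 2 had the most unequal set of D-box factors in the study. Against the mean of the other 4 vehicle trained libraries, Dbp was 19.9-fold lower, Hlf 5.25-fold lower, Tef 1.30-fold lower and Nfil3 19.3-fold higher. Dbp and Hlf were below all 17 other samples in this library. Tef was not, since 8 samples were lower, all of them labelled knockout. Summed macrophage markers were 300.5 CPM in this library against 128.7 to 280 CPM in the other 4, all 5 of 5 listed markers being tested. Lymphocyte markers summed to 0.497 CPM against 0.861 to 1.73 CPM, and muscle fibre markers to 75680 CPM against 93790 to 103100 CPM. Satellite cell markers summed to 29.7 CPM against 16.5 to 22.4 CPM, adipocyte markers to 146 against 212.7 to 688 CPM, and blood markers to 552 against 619 to 2047 CPM. Schwann cell, endothelial and fibroblast sums lay within the range of the other 4. The part of other cell types in these values was not tested.

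The ranges of the marker lists overlapped between the labels in sedentary muscle. Summed macrophage markers (5 of 5 tested) ranged from 39.6 to 160.1 CPM with vehicle and from 61.0 to 176 CPM with the knockout label. Summed satellite cell markers (3 of 4 tested) ranged from 21.2 to 29.2 CPM and from 28.0 to 34.1 CPM, which overlap only narrowly. In trained muscle without library 2 they ranged from 16.5 to 22.4 CPM with vehicle, with a median of 22.1, and from 22.4 to 29.6 CPM with the knockout label, with a median of 29.1. The part of these cells in the changes of the D-box factors was not tested.

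Clock genes were grouped by the element known to control them, with Dbp in the E-box list and Nfil3 in the RRE list. These lists share genes with each other, and earlier results for clock genes in these data were known when they were drawn up. Of 8 E-box genes, all tested, 4 fell and 0 rose in sedentary muscle with all samples (Nr1d2, Bhlhe40, Per2 and Dbp), and 6 fell without library 2, where 1.31% and 3.84% of all genes fell. Their median log2 change was -0.91 in both fits, against 0.01 and 0.02 over all genes. Dbp is itself on this list, so its own fall is part of these counts and of the median. Nr1d2, which encodes the repressor REV-ERB beta, had means of 275 ± 26.3 CPM with vehicle and 117 ± 16.8 CPM with the knockout label (SD, n = 5 each) and fell by 1.24 on the log2 scale (SE 0.133, edgeR adjusted p = 1.95e-05). Bhlhe40, an E-box repressor, had means of 162 ± 19.8 and 75.7 ± 8.998 CPM (SD, n = 5 each) and fell by 1.10 on that scale (SE 0.238, edgeR adjusted p = 0.0135). In trained muscle 3 E-box genes fell with all samples, where 1.3% of all genes fell. Without library 2, 5 fell, Dbp among them, and 0 rose, where 3.65% of all genes fell.

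Genes controlled through the D-box are those on which the 4 factors act in the clock itself. Of 7 such genes 6 were tested, since Rorb was under the filter. Per1, Per2, Nr1d1 and Nr1d2 are on the E-box list as well, so the counts of the 2 lists are not independent. In sedentary muscle 2 fell and 0 rose with all samples (Nr1d2 and Per2), where 1.31% of all genes fell, and 6 of 6 fell without library 2, where 3.84% did. The median log2 changes were -0.91 and -0.90, against 0.01 and 0.02 over all genes. In trained muscle 3 fell with all samples (Nr1d2, Rora and Per2) and 5 without library 2, where 1.3% and 3.65% of all genes fell. The medians were -1.37 and -1.03, against -0.03 and 0.00462 over all genes. Per3, a period gene listed for the D-box and not for the E-box, had sedentary means of 54.3 ± 8.59 CPM with vehicle and 25.8 ± 2.34 CPM with the knockout label (SD, n = 5 each). Its log2 change was -1.08 with all samples (SE 0.353, edgeR adjusted p = 0.167) and -1.07 without library 2 (SE 0.114, edgeR adjusted p = 4.37e-06). Rora, an RRE activator also listed for the D-box alone, had a log2 change of -0.51 in sedentary muscle with all samples (SE 0.294, edgeR adjusted p = 0.687). Without library 2 it was -0.50 (SE 0.121, edgeR adjusted p = 0.0127). In vehicle-trained library 2 Rora and Per3 parted, with Rora at 578 CPM, the highest of its group, and Per3 at 5.11 CPM, the lowest.

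Genes controlled through the RRE, the group to which Nfil3 belongs, were mostly not past the threshold with all samples, and those that passed were higher. Of 6 listed symbols 5 were tested, with Bmal1 present as Arntl. In sedentary muscle 2 rose (Npas2 and Clock) and 0 fell with all samples, where 1.02% of all genes rose, and 4 rose without library 2 (Npas2, Clock, Arntl and Nfil3), where 3.14% did. The medians were 1.19 and 1.20, against 0.01 and 0.02 over all genes. Both medians are the change of Nfil3 itself, so they add nothing about the other genes of the list. Clock, the partner of BMAL1, had means of 32.8 ± 1.69 and 75.7 ± 6.49 CPM (SD, n = 5 each) and rose by 1.20 on the log2 scale (SE 0.158, edgeR adjusted p = 0.000166). In trained muscle 1 rose with all samples (Clock) and 4 without library 2, where 1.99% and 5.01% of all genes rose, and the median went from 0.09 to 0.91. With all samples Arntl, at -1.57, and Nfil3 had the opposite sign in trained muscle. Cry1, which has both an E-box and an RRE, did not pass, with a log2 change of 0.05 in sedentary muscle with all samples (SE 0.121, edgeR adjusted p = 0.996).

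**Figure D4:**
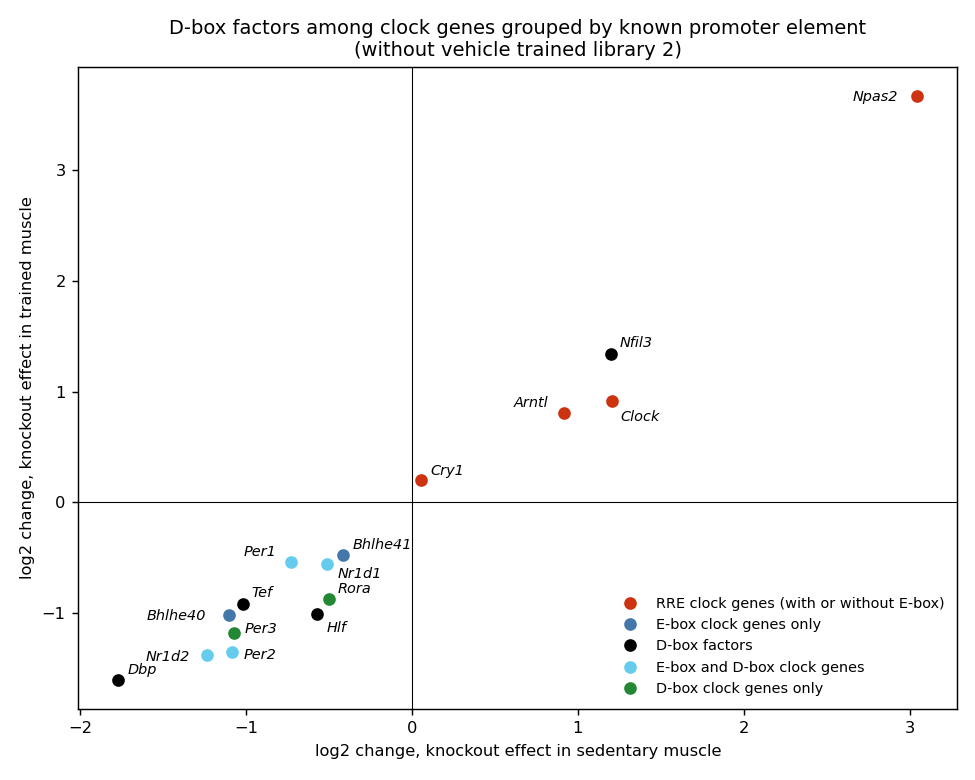
Log2 change of clock genes and the 4 D-box factors in sedentary muscle (x axis) and trained muscle (y axis), labelled knockout against vehicle, without vehicle-trained library 2 and coloured by the known control element. Dbp, Tef and Hlf lie at the lower left with the E-box and D-box genes, and Nfil3 at the upper right near Clock and Arntl.

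Of the other clock components, 7 of 8 were tested. Ciart, an E-box-controlled repressor, fell in sedentary muscle with all samples (edgeR adjusted p = 0.0066), 1 of 7 genes, where 1.31% of all genes fell. Csnk1e, Ciart and Cry2 fell without library 2 in both training states, where 3.84% and 3.65% of all genes fell. The 7 known outputs of the PAR bZIP factors in liver and kidney gave 4 tested genes. None passed with all samples in either training state, where 2.33% and 3.29% of all genes did. Without library 2, 1 of these 4 genes fell in both, where 3.84% and 3.65% of all genes fell. This was Pdxk, which makes the active form of vitamin B6 and is a known PAR bZIP target. Its sedentary means were 23.1 ± 2.32 CPM with vehicle and 17.6 ± 1.93 CPM with the knockout label (SD, n = 5 each). Its log2 change without library 2 was -0.39 in sedentary muscle (SE 0.113, edgeR adjusted p = 0.0426) and -0.52 in trained muscle (SE 0.137, edgeR adjusted p = 0.0236). Alas1, the first enzyme of heme synthesis, and Por, which passes electrons to cytochrome P450 enzymes, did not pass, with log2 changes of -0.13 and 0.15 in sedentary muscle without library 2.

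C/EBP factors are bZIP proteins whose sites resemble the D-box. Of 6 listed genes 5 were tested. Ddit3, which encodes the stress factor CHOP, fell in sedentary muscle with all samples by 0.60 on the log2 scale, its means being 15.8 ± 2.10 and 10.45 ± 0.706 CPM with n = 5 each (SE 0.120, edgeR adjusted p = 0.00784). Ddit3 alone of the 5 passed in sedentary muscle in both fits, where 1.31% of all genes fell with all samples and 3.84% without library 2. In trained muscle none passed with all samples. Without library 2, Ddit3 and Cebpg passed as lower there, where 3.65% of all genes did. Their log2 changes were -0.45 and -0.32 (edgeR adjusted p = 0.0132 and 0.0451). Cebpa, Cebpb and Cebpd did not pass in either training state, with or without library 2. Of Cebpd the log2 change in trained muscle was -2.53 with library 2 (SE 0.952, edgeR adjusted p = 0.175) and -0.21 without it (SE 0.325).

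The members were also compared with each other and with all tested genes over the 17 samples without library 2, by Pearson's r and Spearman's rho of log2(CPM + 1). These values describe likeness. The samples fall into vehicle and labelled-knockout clusters, so r mostly restates the difference between them, and no p is given. Dbp and Tef had r = 0.954 (rho 0.770), and 25 genes, with Dbp itself counted, had a higher r with Dbp than Tef had. Nfil3 was opposite to Dbp, with r = -0.941 (rho -0.806). After subtraction of each group's mean, Dbp and Hlf had r = 0.653 and Tef and Hlf r = -0.698 over the same 17 samples, so samples high in Hlf for their group tended to be high in Dbp and low in Tef. Dbp and Nfil3 had -0.186.

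Most like Dbp over the 17 samples were Aebp1, a matrix-associated protein (r = 0.983, rho 0.902), the gene model Gm21955 (r = 0.982, rho 0.846) and Sorbs3, the adaptor vinexin (r = 0.980, rho 0.880). Aebp1 had sedentary means of 124 CPM with vehicle and 35.3 CPM with the knockout label. In vehicle-trained library 2 the likeness parted, and with that library in, r was 0.433 for Aebp1 and 0.307 for Sorbs3, but 0.931 for Gm21955. Most like Tef were Vps13a, a lipid transfer protein (r = 0.982, rho 0.900), the kinase Wnk2 (r = 0.982, rho 0.865) and Usp2, a deubiquitinase with a daily rhythm in many tissues (r = 0.981, rho 0.953). Usp2 had sedentary means of 339 CPM with vehicle and 153 CPM with the knockout label, and its r within groups was 0.751.

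Most like Hlf were Zcchc24, a zinc finger gene (r = 0.971, rho 0.912), Arhgap15, a Rac GTPase-activating protein (r = 0.920, rho 0.875), and Gm14698 (r = 0.912, rho 0.890). Zcchc24 also followed Hlf within groups, with r = 0.894, and lost the likeness in vehicle-trained library 2, with r = -0.281 over all 18 samples. Most like Nfil3 were Cdkn1a, which encodes the cell cycle inhibitor p21 (r = 0.969, rho 0.936), the transcription factor Tead4 (r = 0.962, rho 0.804) and the coactivator Pnrc1 (r = 0.958, rho 0.897). Cdkn1a had means of 8.92 and 121 CPM in vehicle and knockout sedentary samples and 9.57 and 132 CPM in the trained ones (library 2 left out). With library 2 in, r with Nfil3 was 0.919 for Cdkn1a, 0.713 for Tead4 and 0.980 for Pnrc1.

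Counts of Dbp and Tef carry an uncertainty from overlapping genes, because the sources used here do not state whether counting used strand. Dbp shares 539 exonic bases with Sphk2 on the opposite strand in GENCODE M21, and Tef shares 193 with the antisense gene Gm17597. Sphk2 had sedentary means of 21.8 ± 3.48 CPM with vehicle and 25.9 ± 3.09 CPM with the knockout label (SD, n = 5 each). Its log2 change was 0.25 with all samples (SE 0.117, edgeR adjusted p = 0.499), opposite in sign to Dbp. In trained muscle without library 2 Sphk2 passed as higher, with a log2 change of 0.44 (SE 0.128, edgeR adjusted p = 0.0406), where 5.01% of all genes did. Levels of Gm17597 are not given here. Hlf and Nfil3 overlap no annotated gene there.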

How the data were processed

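The deposited table holds estimated counts per gene, although it carries the name of another unit: its columns sum to different totals. Per the submitters' processing notes, STAR 2.7.8a, Partek and DESeq2 and the builds mm10 and GRCm39 were used, with no roles given. Counting program, annotation and strand are not given in the sources used here. The lowest sum of any listed gene is 10.

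The members and lists were chosen with earlier results of these data known. Estimated counts were rounded. Of 190 library pairs, 2 had a ratio of noise at high to low counts under 1.5 and were summed in tests and averaged in means. The 14359 genes that reached 1 CPM in 5 or more libraries were tested with edgeR 4.0.16 (R 4.3.3), TMM scaling and 4 group means, adjusted by Benjamini-Hochberg over all of them, threshold 0.05. SE is the log2 change over the root of F. The test was tested on simulated data. Alternatives used limma 3.58.1 and DESeq2 1.42.0, other filters and scaling, libraries as separate samples, a replicate block and each sample left out.

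Named genes are the members, Arntl, up to 4 passing genes of each list per knockout contrast, chosen for size of change, and the 3 genes most like each member. Other genes named beside them (Sphk2, Gm17597, and list genes that did not pass or were not among those 4) were chosen after their values were seen. One gene of the lists is not reported here and was left out of their counts and medians.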

Additional observations from a re-analysis of the deposited data

Results flagged for a closer look

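Among 15 groups of 5 values examined (4 members and the log2 ratio of activators to Nfil3, in the 3 groups of 5 samples), 4 held a sample whose distance to the nearest other exceeded 0.710 of the group's range, where chance flags about 1 in 20 groups. All 4 were vehicle-trained library 2, so they are not 4 independent events. They were Dbp at 5.89 CPM, Hlf at 7.81 CPM, Nfil3 at 542.3 CPM and the log2 ratio of summed activators to Nfil3 at -1.04. Tef in the same library, at 250.5 CPM, was the lowest of its group but did not meet the limit.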

How the results depend on the processing

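Of the 4 D-box factors, the number passing in sedentary muscle (2 with edgeR on 18 samples) was 1 with limma at either pseudocount (1 or 0.1), 1 with the replicate block and the 20 libraries as separate samples together, and 4 with only the contrasted groups in the fit. In trained muscle (1) it was 2 with the 20 libraries as separate samples and 0 with only the contrasted groups. Leaving out 1 sample gave 1 to 4 in either. Without vehicle-trained library 2, the fits added after the data were seen (limma, DESeq2 and separate libraries) each gave 4 in both. Tef passed in 30 of 30 alternatives in sedentary and 29 of 30 in trained muscle, and Dbp in sedentary muscle lost its call in 19 of 30 (adjusted p 2.97e-48 to 0.174) with log2 changes of -1.82 to -1.71. The cause was not tested.

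Genes passing with DESeq2 numbered 537 and 907 for the knockout label in sedentary and trained muscle, 15 and 198 for training in vehicle and knockout muscle, and 26 for the interaction. Separate libraries gave 1225 in trained muscle and 49 for training in knockout muscle. Only the contrasted groups gave 1177 in sedentary and 20 in trained muscle. Leaving out 1 sample gave 251 to 1002, 177 to 1244, 0 to 1 and 0 to 397 for the first 4 contrasts in that order. Among these, 299 passed in trained muscle without knockout trained library 2, and 121 for training in knockout muscle without vehicle-trained library 2. Without library 2, limma gave 1020, 1185 and, for training in knockout muscle, 75. DESeq2 then gave 1245, 1616, 22, 715 and 116, and separate libraries 1051, 2048, 1 and 513. Tef in knockout sedentary samples was at 191.8 CPM by library totals.

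The log2 change of Nfil3 in trained muscle turned to 0.4661 and 0.4853 with limma, to 1.34 without library 2, and then to 1.322 (limma), 1.343 (DESeq2) and 1.318 (separate). Without library 2 the training change in vehicle muscle turned to -0.1706 for Nfil3 (then -0.1596, -0.176 and -0.1568) and 0.06081 for Hlf (then 0.0687, 0.05416 and 0.07076), and the interaction of Nfil3 to 0.1409 (then 0.1313, 0.1503 and 0.14). The interaction of Hlf was 0.007119 and 0.01439 with limma. Leaving out 1 sample took the training change in knockout muscle from -0.1634 to 0.1133 for Dbp (0.01005 without knockout trained libraries 3 and 5, 0.0431 without knockout sedentary library 1) and from -0.06817 to 0.0115 for Nfil3 (-0.05786 without knockout sedentary library 4), the trained change of Nfil3 from -1.161 to 1.339, its training change in vehicle muscle from -0.1706 to 2.32, its interaction from -2.352 to 0.1409, and the training change of Hlf in vehicle muscle from -0.2956 to 0.06081.

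Replicate numbers did not pair the samples: 11 of 30 same-number pairs had a correlation over 0.1, and 5 of 20 libraries correlated best with their own number. The replicate block was fitted only together with the 20 libraries as separate samples, so the 2 choices were changed at once. Then 980 genes passed in trained muscle, against 1225 with separate libraries and no block, and the log2 change of Nfil3 was 0.1891 there and 0.009834 for training in knockout muscle. The 18 samples and n = 3 in 1 group limit what the tests can show.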
